A study of Mus musculus with 3 samples.

Results

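The 7 genes Ms4a4a, Ms4a4b, Ms4a4c, Ms4a6b, Ms4a6c, Ms4a6d and Ms4a7 were taken by symbol from the 31053 genes listed in the deposited tables and were followed across populations of sorted hippocampal cells. They belong to the membrane-spanning 4A family, whose proteins cross the membrane several times and sit at the surface or in endosomes of immune cells. The founding members are the B cell antigen CD20 (Ms4a1) and the beta chain of the high-affinity IgE receptor (Ms4a2). In macrophages of the mouse brain, Ms4a7 is used as a marker that separates macrophages of the meninges and vessels from microglia, and the human gene cluster is known from genetic studies of Alzheimer disease and of soluble TREM2.

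The cells came from bilateral hippocampi of mice of genotype Cx3cr1CreERT2/+; Rosa26tdTomato/+; NestinTK-eGFP/+, a line in which tamoxifen activates Cre in cells that express the fractalkine receptor Cx3cr1 and so switches on the red reporter tdTomato. Every animal carried this genotype and was given the inducer (tamoxifen, 100 mg/kg, 4 days), and only viable tdTomato+ cells were taken, so there was no control group. The study names 12 animals, 6 of each sex, and 3 sequencing runs, with no assignment of animals to runs. The runs are the replicates, nothing states that they hold different animals, and p-values measure the spread between these runs only. In most comparisons that spread was taken from all genes together. There a p-value does not reflect how well the runs of a single gene agree. After filtering, 6993, 6720 and 6078 cells remained in runs 1, 2 and 3, 19791 in all, with medians of 4425, 3438 and 3696 UMIs (unique molecular identifiers, each counting 1 captured transcript) per cell. There were 23 barcode sequences that occurred in more than 1 run.

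Populations were defined by gates, meaning a minimum number of marker genes with at least 1 UMI in a cell, and no Ms4a gene is a marker. The microglia gate held 18776 cells (94.9% of those kept). Lineage gates, set by markers of other cell types, held 96 border macrophages (40, 18 and 38 by run), 123 MHC class II cells (41, 35 and 47) and 11 T and NK cells (2, 3 and 6). These gates did not exclude cells that also met the minimum of microglial markers. Membership therefore does not show that a cell is of another lineage than microglia. Gates for microglial states held 116 interferon, 142 lipid and phagocyte, 90 chemokine and 57 cycling cells. The border macrophage gate was not clean: its 8 microglial markers stood at 40.1 to 78.0% of their level in microglia, and 35.0% of its run 1 cells held both Xist and Y-linked UMIs, against 0 in run 2 and 7.89% in run 3. In the MHC class II gate the microglial markers stood at 29.5 to 48.3% and in the T and NK gate at 13.5 to 31.2%. A further 117 cells met the immediate early gate, 111 of them in run 3, and this gate was not tested.

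All 7 genes lie within 284 kb of chromosome 19 (chr19:11321039-11604849, GRCm38, GENCODE M21), which holds 9 coding genes in all. Ms4a7 (chr19:11321039-11336146) and Ms4a6d (chr19:11586604-11604849) are read from the minus strand at the ends of the stretch. Between them Ms4a4a (chr19:11375523-11392790), Ms4a4c (chr19:11404770-11427246), Ms4a4b (chr19:11443553-11467055), Ms4a6c (chr19:11469366-11482192) and Ms4a6b (chr19:11516512-11531256) are read from the plus strand. Gm19261 overlaps Ms4a6b and BE692007 overlaps Ms4a6c on the opposite strand, and the use of strand in counting is not given in the sources used here. Reads could be shared with other genes only in part, as judged by the 50-base stretches in the last 500 bases of the coding transcripts. Of these, 13.7% of those of Ms4a6c, 11.1% of those of Ms4a4c and 1.22% of those of Ms4a6b occur in a transcript of another gene. None of those of the other 4 genes do. For Ms4a6c the other genes were Ms4a6b and 1700086O06Rik, Gm44997 and Prdm11, which are not members. For Ms4a4c they were Ms4a4b and Ms4a4d, and for Ms4a6b Ms4a6c.

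**Figure D1:**
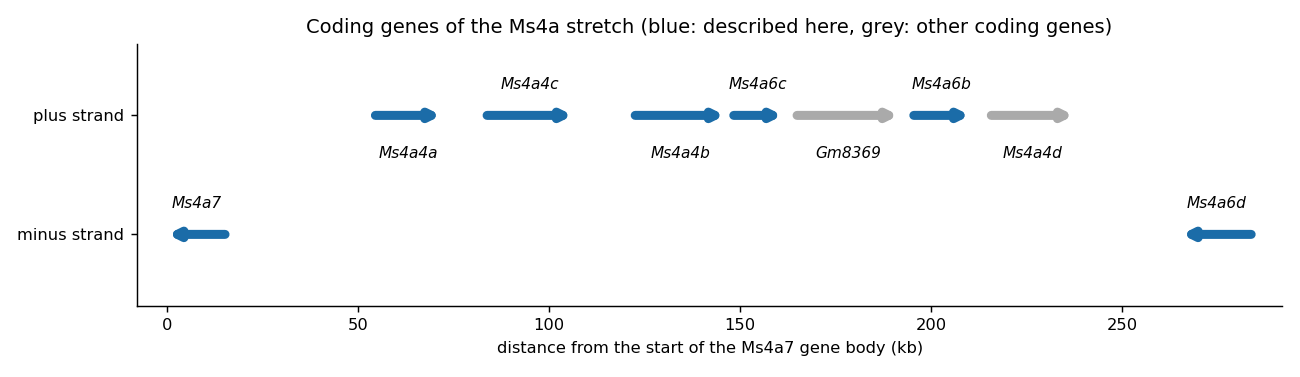
Map of the 9 coding genes between Ms4a7 and Ms4a6d, with the distance in kb from the start of the Ms4a7 gene body on the horizontal axis and the strand on the vertical axis. Arrows are gene bodies drawn to scale and point in the direction of transcription, and the 7 blue genes are those described, in a stretch of 284 kb.

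The sequences just before the transcription starts are shown because neighbours in this stretch, among them Ms4a4c and Ms4a4b, were detected in different populations. Each line gives the 100 bases before a RefSeq start (GRCm38.p6), 5′ to 3′ on the gene's strand, with capitals marking GGAAGT or its reverse complement, a core recognised by PU.1, the myeloid and lymphoid transcription factor. RefSeq starts were matched for 6 of the 7 genes, and Ms4a6d is named only.
Ms4a7, chr19:11336147-11336246: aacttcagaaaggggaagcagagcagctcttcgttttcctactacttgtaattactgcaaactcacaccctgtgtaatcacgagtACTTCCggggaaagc
Ms4a4a, chr19:11375388-11375487: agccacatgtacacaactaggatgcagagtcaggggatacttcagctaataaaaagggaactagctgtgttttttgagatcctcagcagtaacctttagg
Ms4a4c, chr19:11407561-11407660: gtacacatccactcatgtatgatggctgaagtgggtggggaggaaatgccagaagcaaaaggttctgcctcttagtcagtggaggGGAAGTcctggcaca
Ms4a4b, chr19:11443458-11443557: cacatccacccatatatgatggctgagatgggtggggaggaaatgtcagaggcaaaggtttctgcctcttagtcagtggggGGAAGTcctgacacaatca
Ms4a6c, chr19:11469268-11469367: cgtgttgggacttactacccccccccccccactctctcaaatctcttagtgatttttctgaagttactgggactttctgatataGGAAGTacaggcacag

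The core lies 10 to 19 bases before the start in Ms4a7 (bases -15 to -10), Ms4a4c (-15 to -10), Ms4a6c (-16 to -11) and Ms4a4b (-19 to -14). RefSeq gives Ms4a7 a second start (base 11334695), whose 250-base window holds no such core, and the window of Ms4a4a holds none. Before the Ms4a6b start the core was found 2 times, both within 100 bases that lie in an exon of Ms4a6b, as that start lies inside the annotated gene. Of all 32851 RefSeq windows of 250 bases, 19.7% hold it on either strand. The windows of Ms4a4b and Ms4a4c were identical at 77 of 97 bases compared without gaps (79.4%). The other 14 pairs gave 35.3 to 45.6%, but only limited shifts between windows were tried. The stretch of Ms4a6b and Ms4a6c given next starts at base -100 in Ms4a6b and -31 in Ms4a6c, a larger shift than those tried. The value of that pair thus misses it, and its 30 bases are a chosen length, not the full extent of the likeness. Ms4a6b and Ms4a6c share a stretch of 30 bases around the core exactly, at chr19:11518459-11518488 in Ms4a6b (ggactttctgatataGGAAGTacaggcaca). Neither the interferon-stimulated response core (GAAA, any 2 bases, GAAA; held by 2.98% of all windows) nor the gamma-activated site TTCNNNGAA (7.02%) was found in these windows on either strand. A match is a string of letters and not a measured site.

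Ms4a7 was detected in border macrophages and MHC class II cells and was nearly absent from microglia. Levels are given in CPM, the gene's share of all UMIs summed over the cells of a gate in a run, scaled to a fixed total. In border macrophages Ms4a7 stood at 592, 1498 and 1140 CPM in runs 1, 2 and 3, a mean of 1077 ± 456 (SD, n = 3). MHC class II cells gave 165, 1077 and 322 CPM. The 18776 microglia held 17 Ms4a7 UMIs, or 0.228, 0 and 0.453 CPM, so each run was higher in both gates than any run of microglia, while the ranges of the 2 gates overlapped. None of its UMIs fell in the interferon, lipid and phagocyte, chemokine or T and NK gates. On pooled counts the level in border macrophages was 3665 times that of microglia (exact 95% interval 2268 to 6337) and that in MHC class II cells 2025 times (1246 to 3516); all such intervals cover counting error only.

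Counted by cells, Ms4a7 was near a yes or no character. Of 170 cells with at least 2 Ms4a7 UMIs, 81 were border macrophages, 36 MHC class II cells, 52 cells that met several lineage gates and 1 a microglia-gated cell. After each cell was thinned to 2000 UMIs, so that depth could not differ, 82.9% ± 7.54 (SD, n = 3 runs) of border macrophages held a Ms4a7 UMI, against 32.9% ± 12.9 of MHC class II cells and 0.0436% ± 0.0394 of microglia. Without thinning the shares were 95.5%, 36.4% and 0.0763%. Cells with 3 border markers, the minimum, held 1196 CPM of Ms4a7 (19 cells), and cells with 2 held 556 CPM (36 cells). Both values were taken over all kept cells and can include cells that met another lineage gate, such as the MHC class II gate.

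The MHC class II gate was mixed with respect to Ms4a7. Its 44 cells with a Ms4a7 UMI (8, 18 and 18 by run) and 79 cells without (33, 17 and 29) had like depths, with medians of 5466 and 5363 UMIs. Cells with Ms4a7 held more of the border markers Pf4 (430 against 31.2 CPM) and Mrc1 (207 against 64.4 CPM), while Cd163, a scavenger receptor of border macrophages, had 0 UMIs in them. Of the other border markers, Lyve1, Cbr2, Cd209f and Folr2 had 0 UMIs in the whole gate and F13a1 had 8. Cells with 3 or more border markers had been left out of this gate. The cells with Ms4a7 held more Apoe, the lipid carrier (36269 against 4961 CPM), and Cd74, the MHC class II chaperone (26134 against 10992 CPM). They held less P2ry12, the microglial purine receptor (543 against 1558 CPM). Cd209a, a lectin of dendritic cells, had 0 UMIs in them and 158 UMIs in the others, all in 9 cells. Border macrophages held Cd209a too, with 70 UMIs. The other dendritic markers were scarce in the whole MHC class II gate: Flt3 had 10 UMIs, Zbtb46 2, Clec9a 1, Xcr1 1 and Ccr7 0. A gate of at least 3 of the 6 dendritic markers held 0 cells, as the 5 cells that met it also met another lineage gate. In MHC class II cells with Ms4a7 the Ms4a6c level was 621 CPM against 310 CPM in those without, and the Ms4a6b level 402 against 164 CPM. These are sums over cells divided by their own Ms4a7 UMIs, a description with no test.

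Ms4a4a, whose human counterpart marks alternatively activated macrophages, was found mainly in border macrophages. It stood at 81.0, 67.3 and 96.4 CPM there (81.6 ± 14.6, SD, n = 3), from 56 UMIs. Microglia held 2 UMIs and MHC class II cells 5 UMIs, all of them in run 1, where the level was 19.2 CPM; the runs of the border gate and those of the MHC class II gate did not overlap. On pooled counts the border level was 12.9 times that of MHC class II cells (exact 95% interval 5.20 to 41.2) and 3195 times that of microglia (844 to 27030). Of 23 cells with at least 2 UMIs, 17 were border macrophages and 5 met several lineage gates. Thinned to 2000 UMIs, 17.0% ± 3.27 (SD, n = 3) of border macrophages held a UMI, so most cells of the gate gave none at this depth.

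Ms4a4b, a surface protein of T cells, was found in the T and NK gate. It stood at 1898, 618 and 1122 CPM there, from 67 UMIs in 9 of 11 cells, and microglia held 6 UMIs in all. The pooled ratio was 15586 (exact 95% interval 6797 to 43978). With 2, 3 and 6 cells per run, below the 10 set as the minimum, this gate was not tested, and a gate of 2 markers in place of 3 held the same number of cells. Of 11 cells with at least 2 Ms4a4b UMIs, 8 were T and NK cells. The other members differed in these 11 cells: Ms4a6b stood at 271, 265 and 210 CPM, 1.21 times the microglial level (exact 95% interval 0.643 to 2.07), Ms4a6d gave 1 UMI, and Ms4a4a, Ms4a4c, Ms4a6c and Ms4a7 gave 0 UMIs, for which 3 counts would be 54.9 CPM. The Ms4a6b level came from 13 UMIs in 5 cells. The 8 microglial markers stood at 13.5 to 31.2% of their microglial levels in this gate. Ms4a6d, from its 1 UMI, stood at 12.0% of its microglial level (exact 95% interval of the ratio 0.00304 to 0.668). The share of microglial RNA in these values was not tested.

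**Figure D2:**
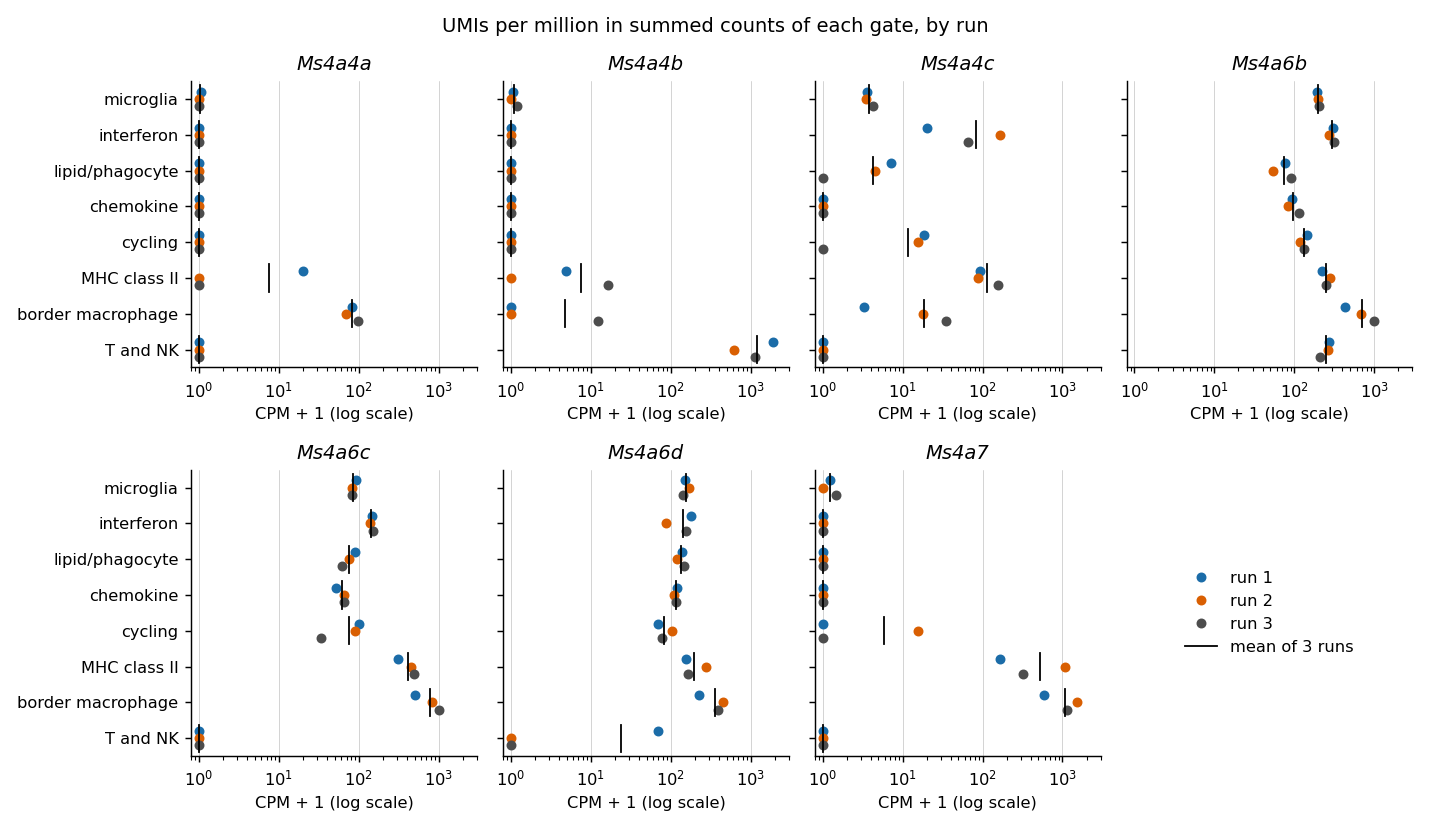
Level of each gene (CPM + 1, log scale) in 8 gates, with 1 point per run in the colour of the run and a line at the mean of 3 runs. Ms4a7 and Ms4a4a points leave the axis origin mainly in the MHC class II and border macrophage gates, Ms4a4b in the T and NK gate, and the 3 Ms4a6 genes are present in every microglial gate.

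Of the 4 members whose microglial level alone passed the filter on low counts, 3 were higher in border macrophages than in microglia, where 3.41% of 11231 genes tested were higher. Ms4a7 and Ms4a4a passed only through the border gate, where they are high, and so had to differ, and Ms4a4b was not tested. Ms4a6c stood at 504, 825 and 993 CPM against 89.7, 81.4 and 79.9 CPM, a log2 change of 3.11 (SE 0.27, edgeR quasi-likelihood test, adjusted p = 1.41e-28). Ms4a6b stood at 426, 673 and 1004 CPM against 193, 196 and 205 CPM (log2 change 1.70, SE 0.26, edgeR adjusted p = 5.2e-09). Ms4a6d, a protein reported to damp the inflammasome, stood at 227, 454 and 386 CPM against 150, 168 and 141 CPM (1.10, SE 0.26, edgeR adjusted p = 0.000813). No run of the border gate overlapped a run of microglia for these 3 genes.

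For Ms4a7 and Ms4a4a the counts above stand as a description, with 17 and 2 UMIs in microglia against 546 and 56 in border macrophages. Ms4a4c, at 2.31, 16.8 and 34.0 CPM from 8 UMIs, did not pass (2.21, SE 0.84, edgeR adjusted p = 0.112). Without run 3, Ms4a6d no longer passed (0.87, edgeR adjusted p = 0.484). Without run 1, the run with the most cells of both sex-linked kinds, Ms4a6b, Ms4a6c and Ms4a6d were called, and likewise with such cells left out of all runs. In the 53 border macrophages with at most 2 UMIs of P2ry12, Tmem119 and Siglech together, the mean levels were 978 CPM for Ms4a6c, 974 for Ms4a6b, 450.2 for Ms4a6d and 1457 for Ms4a7, each at or above that of the whole gate (774, 701, 356 and 1077 CPM).

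All 4 members whose microglial level passed the filter were higher in MHC class II cells than in microglia, where 7.81% of 11287 genes were higher; Ms4a7 passed only through the MHC class II gate and is described above, and Ms4a4a and Ms4a4b were not tested. Ms4a4c stood at 92.3, 86.2 and 155 CPM, a range that overlaps that of the interferon gate, against 2.63, 2.53 and 3.21 CPM in microglia (log2 change 5.50, SE 0.40, edgeR adjusted p = 2.06e-40). Ms4a6c stood at 308, 442 and 484 CPM (2.50, SE 0.17, edgeR adjusted p = 1.31e-44), all above the microglial runs and below those of border macrophages. Ms4a6b at 219, 275 and 245 CPM, above the microglial runs, and Ms4a6d at 154, 275 and 161 CPM, overlapping them, changed by 0.52 (SE 0.18, edgeR adjusted p = 0.0296) and 0.53 (SE 0.18, edgeR adjusted p = 0.0314). These 2 calls were lost without run 2 (edgeR adjusted p of 0.38 for Ms4a6b and 0.566 for Ms4a6d) and without run 3 (0.232 and 0.169), and also by DESeq2 (adjusted p of 0.0627 and 0.126), without the block or without the filter, and all comparisons with microglia share the same microglial sums.

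The difference between the border macrophage and MHC class II gates was tested directly, a comparison chosen after the values were seen. Of the 4 members that passed the filter in both gates, 3 were higher in border macrophages, where 3.52% of 3555 genes were: Ms4a6b (log2 change 1.31, SE 0.26), Ms4a7 (1.24, SE 0.27) and Ms4a6c (0.75, SE 0.22), with edgeR adjusted p of 0.00408, 0.00799 and 0.0494. Ms4a6d did not pass (0.72, SE 0.26, edgeR adjusted p = 0.117). These calls were unstable: Ms4a6b was called in 5, Ms4a7 in 6 and Ms4a6c in 2 of 10 alternatives, Ms4a7 alone of the 4 was called without run 2, and without run 3 no gene of the whole table was. Ms4a4a and Ms4a4c each passed the filter through 1 of the gates only, Ms4a4a through border macrophages (fitted change 3.39, from 1.52 to 6.94 over 9 alternatives) and Ms4a4c through MHC class II cells (-3.16, from -4.35 to -1.77 over 10), so that their differences are a description. Tmem176a, a relative described further on, was lower in border macrophages than in MHC class II cells (-0.97, SE 0.22, edgeR adjusted p = 0.0108), where 4.30% of genes were lower.

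In the interferon gate, microglia with at least 5 of 10 interferon-induced markers, 3 members of 4 tested were higher, where 1.62% of 11122 genes were. Ms4a4c stood at 19.2, 164 and 64.6 CPM (from 6, 17 and 10 UMIs) against 2.63, 2.53 and 3.21 CPM, a log2 change of 4.47 (SE 0.51, edgeR adjusted p = 2.43e-16). Its lowest run in this gate was above every run of microglia, and it was called under all 11 alternatives. Ms4a6b stood at 307, 270 and 317 CPM (0.59, SE 0.13, edgeR adjusted p = 0.000853) and Ms4a6c at 144, 135 and 149 CPM (0.73, SE 0.19, edgeR adjusted p = 0.00577), with no run overlapping the microglia gate. Ms4a6d did not move with them, at 179, 86.7 and 155 CPM (0.00, SE 0.17, edgeR adjusted p = 1.00). The smaller changes were not called without run 1 (edgeR adjusted p of 0.155 for Ms4a6b and 0.176 for Ms4a6c), and Ms4a6c was not called without run 3 (0.178) or by DESeq2 (0.0618). Without the block neither was called (edgeR adjusted p of 0.309 and 0.151).

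In the lipid and phagocyte gate, microglia with at least 3 of 9 genes such as Spp1, Lpl and Cst7, 1 member of 4 tested was lower, where 7.23% of 11201 genes were. That member was Ms4a6b, at 75.5, 53.3 and 89.9 CPM against 193, 196 and 205 CPM (log2 change -1.42, SE 0.17, edgeR adjusted p = 6.13e-15), called under all 11 alternatives. Its neighbour Ms4a6c stood at 87.8, 74.6 and 59.9 CPM (-0.08, SE 0.19, edgeR adjusted p = 0.864) and Ms4a6d at 139, 117 and 144 CPM (-0.16, SE 0.15, edgeR adjusted p = 0.554). The range of Ms4a6b lay apart from that of microglia and those of the other 2 genes overlapped it. Thinned cells gave the same picture for Ms4a6b, with 9.49% ± 5.27 (SD, n = 3) of cells holding a UMI against 32.2% ± 0.757 of microglia. In the choroid plexus gate, epithelial cells that should lack the gene, 3 of 32 thinned cells held a UMI (9.38%, exact 95% interval 1.98 to 25.0%), but this gate carried microglial RNA, with P2ry12 at 34.0% and Tmem119 at 34.3% of their microglial levels.

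The interferon and lipid and phagocyte gates were also compared directly, again after the values were seen, and of 3 members tested 2 were higher in the interferon gate, where 10.6% of 3829 genes were. Ms4a6b differed by 2.00 (SE 0.22, edgeR adjusted p = 1.18e-17) and was called under all 11 alternatives. Ms4a6c differed by 0.83 (SE 0.25, edgeR adjusted p = 0.0078) and was not called without run 1 (0.0836) or without run 3 (0.114). For Ms4a6d the difference was 0.13 (SE 0.22, edgeR adjusted p = 0.762).

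In the chemokine gate, microglia with at least 2 UMIs each of Ccl3 and Ccl4, Ms4a6b was the only member called of the 3 with UMIs there that were tested, at 93.6, 81.4 and 114 CPM (log2 change -0.99, SE 0.22, edgeR adjusted p = 0.000497), where 1.69% of 11056 genes were lower. The call was lost by DESeq2 (adjusted p = 0.0509) and without the block (edgeR adjusted p = 0.0545). Ms4a6c at 51.1, 63.3 and 64.5 CPM and Ms4a6d at 119, 109 and 114 CPM did not pass, with changes of -0.45 (SE 0.29) and -0.40 (SE 0.22) and edgeR adjusted p of 0.571 and 0.465. Each of these runs nevertheless lay below the lowest run of microglia. Ms4a4c gave 0 UMIs in 90 cells, where 3 UMIs would be 6.99 CPM, above its microglial level.

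In the cycling gate 2 members of 4 tested were lower, where 8.62% of 11206 genes were: Ms4a6d at 69.2, 102 and 76.5 CPM (log2 change -1.17, SE 0.26, edgeR adjusted p = 8.5e-05) and Ms4a6b at 143, 116 and 131 CPM (-0.74, SE 0.21, edgeR adjusted p = 0.00436). All runs of both genes lay below those of microglia, and Ms4a6b was not called by DESeq2 (adjusted p = 0.0884). Ms4a6c, at 99.5, 87.1 and 32.8 CPM, overlapped microglia (-0.28, SE 0.27, edgeR adjusted p = 0.57). Cycling cells were deeper than microglia, with medians of 6538 and 3813 UMIs, and at 2000 UMIs per cell 18.3% ± 5.0 (SD, n = 3) held Ms4a6b and 15.8% ± 10.5 held Ms4a6d, against 32.2% and 25.8% of microglia.

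**Figure D3:**
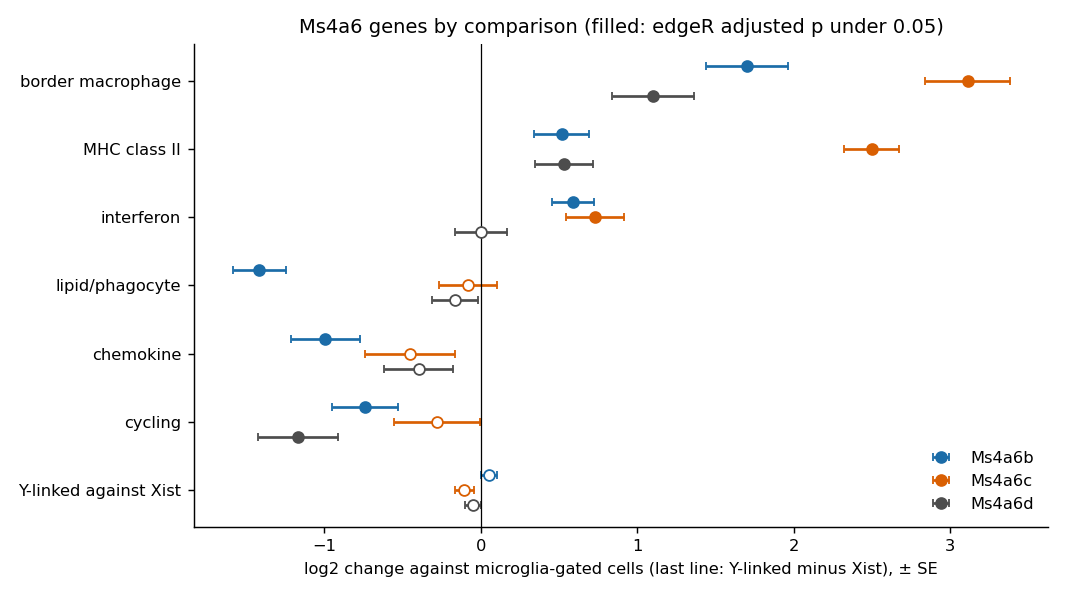
Log2 change with its standard error (horizontal axis) of Ms4a6b, Ms4a6c and Ms4a6d in 7 comparisons (vertical axis), from edgeR on sums per run. Filled points passed an adjusted p of 0.05: Ms4a6c leads in border macrophages at 3.11, Ms4a6b falls to -1.42 in the lipid and phagocyte gate, and all 3 points of the sex-linked comparison are open.

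Within microglia the 3 Ms4a6 genes were steady between runs, at 198 ± 6.27 (Ms4a6b), 83.7 ± 5.25 (Ms4a6c) and 153 ± 13.7 CPM (Ms4a6d; SD, n = 3). At 2000 UMIs per cell, 31.4, 32.3 and 32.9% of microglia held Ms4a6b in runs 1, 2 and 3, 15.9, 14.8 and 14.1% held Ms4a6c, and 25.6, 27.4 and 24.4% held Ms4a6d. The choroid plexus gate gave pooled shares of 9.38%, 9.38% and 15.6%, each from 3 to 5 of 32 cells, whose exact intervals reached 25.0% for the first 2 and 32.8% for Ms4a6d. By summed counts its levels were 61.1 CPM for Ms4a6b (exact 95% interval 30.5 to 109), 33.3 CPM for Ms4a6c (12.2 to 72.5) and 88.9 CPM for Ms4a6d (50.8 to 144), all below the pooled microglial levels of 197, 84.3 and 153 CPM. Since the microglial markers P2ry12 and Tmem119 stood there at 34.0 and 34.3% of microglia, these cells are no clean measure of background. Median depths before thinning were 3813 UMIs in microglia and 2426 in the choroid plexus gate. Microglia with Ms4a4c UMIs were few, 200 of 18776 cells, and 10 of them held 2 UMIs or more.

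Co-detection of the 3 Ms4a6 genes in microglia was near the product of their single shares, which holds for background UMIs as well. Of 18188 thinned microglia, 919 held both Ms4a6b and Ms4a6c, 1.05 times the product of the single shares, 1528 both Ms4a6b and Ms4a6d (1.01 times) and 778 both Ms4a6c and Ms4a6d (1.10 times). By cell, 43.3% held 0 of the 3 genes, 41.8% held 1, 13.5% held 2 and 1.40% all 3. Border macrophages held all 3 in 28.7% of 87 cells and none in 8.05%, MHC class II cells in 10.1% and 30.3% of 119 cells. The lipid and phagocyte gate held all 3 in 0.704% and none in 56.3% of 142 cells, and the cycling gate none in 60.7% of 56 cells. These shares pool the cells of 3 runs and are given as a description.

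**Figure D4:**
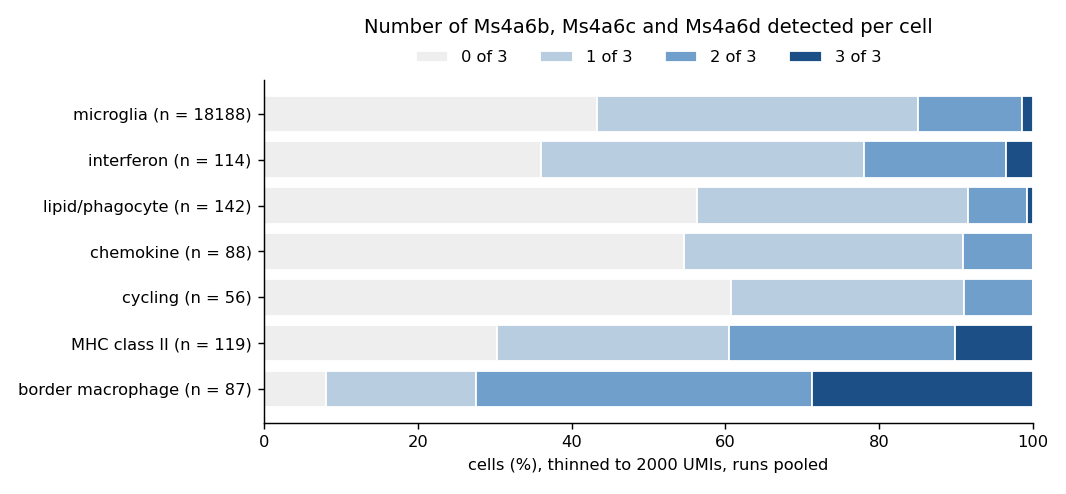
Share of cells (horizontal axis, percent) holding 0, 1, 2 or 3 of Ms4a6b, Ms4a6c and Ms4a6d in 7 gates, after thinning to 2000 UMIs and with runs pooled. Darker segments stand for more genes, and the segment for all 3 widens from 1.40% in microglia to 28.7% in border macrophages.

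**Figure D5:**
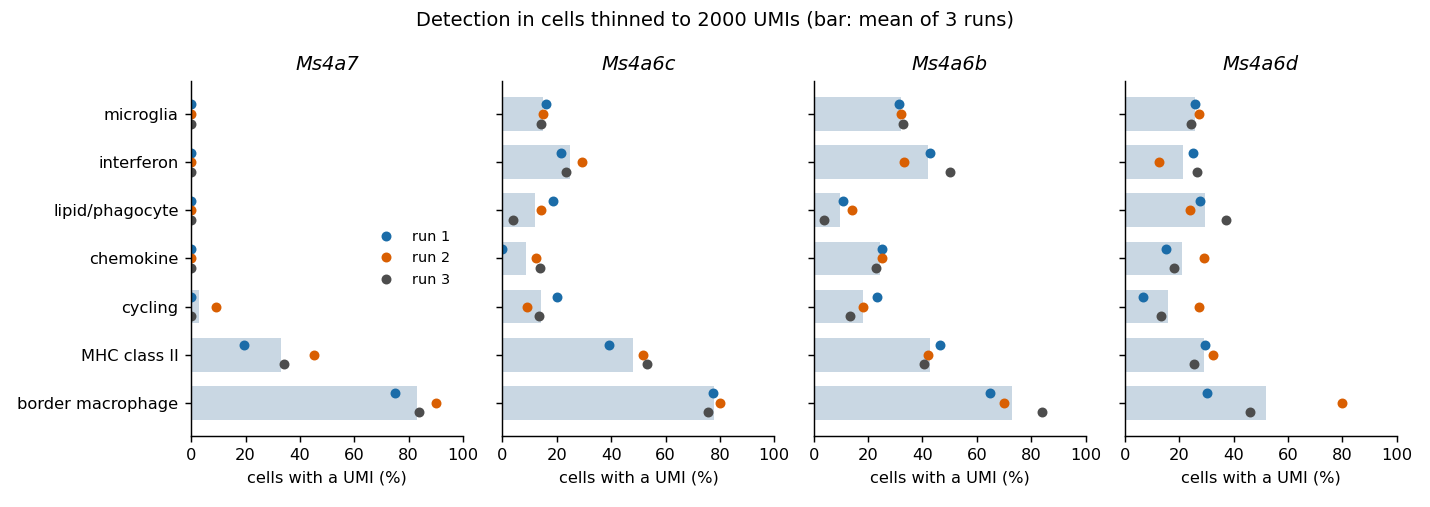
Share of cells with a UMI (horizontal axis, percent) of Ms4a7, Ms4a6c, Ms4a6b and Ms4a6d in 7 gates at 2000 UMIs per cell, with bars at the mean of 3 runs and 1 point per run. For Ms4a7 the bar is 82.9% in border macrophages, 32.9% in MHC class II cells and near 0 in microglia.

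Microglia from male and female animals were compared through sex-linked transcripts, 5093 cells with Y-linked UMIs and no Xist against 8384 cells with at least 2 Xist UMIs and no Y-linked UMI. None of the 4 members tested was called by edgeR, 0 had an unadjusted p under 0.05 and DESeq2 called 0, where 0.107% of 11212 genes were higher and 0.152% lower. Ms4a6b stood at 197, 216 and 196 CPM in Y-linked and 188, 189 and 211 CPM in Xist cells, a log2 difference of 0.05 (SE 0.05). Ms4a6c (-0.10, SE 0.06), Ms4a6d (-0.05, SE 0.05) and Ms4a4c (-0.41, SE 0.26) had overlapping runs too.

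Other genes were read from 2 lists. Of 15 further family genes, Tmem176a and Tmem176b, relatives found in intracellular membranes of antigen-presenting cells, were the 2 with enough counts to be tested. Both were higher in MHC class II cells, Tmem176a at 769, 1115 and 719 CPM against 314, 365 and 327 CPM in microglia (log2 change 1.56, SE 0.18, edgeR adjusted p = 2.96e-16) and Tmem176b by 0.95 (SE 0.18, edgeR adjusted p = 6.67e-06). Tmem176a was higher in the interferon gate (0.40, SE 0.11, edgeR adjusted p = 0.0245), and Tmem176b was lower in the lipid and phagocyte gate (-0.46, SE 0.10, edgeR adjusted p = 3.52e-05) and in the cycling gate (-0.67, SE 0.15, edgeR adjusted p = 9.84e-05). Neither passed in border macrophages, where the changes were 0.46 and 0.54 (edgeR adjusted p of 0.422 and 0.271). Over all genes tested, 7.81% were higher in MHC class II cells and 1.62% in the interferon gate. Lower were 7.23% in the lipid and phagocyte gate and 8.62% in the cycling gate.

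Of the 7 genes of the Trem2 axis, the receptor, its adaptor and the enzymes that act on them, 2 were lower in border macrophages, where 2.33% of all genes tested were, and 0 higher. Trem2, the lipid-sensing receptor, changed by -1.11 (SE 0.27, edgeR adjusted p = 0.001) and Inpp5d, a phosphatase that limits its signal, by -0.86 (SE 0.27, edgeR adjusted p = 0.0313). The list median was -0.71, beside -0.14 over all genes tested. In MHC class II cells Trem2 (-0.63), Inpp5d (-0.85) and Adam10 (-0.75), a protease that sheds Trem2, were lower, where 6.18% of genes were, and 0 were higher. In the lipid and phagocyte gate Trem2 (0.28, SE 0.07) and its adaptor Tyrobp (0.48, SE 0.06) were higher and Inpp5d lower (-0.62, SE 0.10), where 7.19% of genes were higher and 7.23% lower. In cycling cells Trem2 (-0.93), Tyrobp (-0.93) and Inpp5d (-0.47) were lower, where 8.62% of genes were, and in chemokine cells Syk, the kinase downstream, was (-1.25, SE 0.33, edgeR adjusted p = 0.00785), where 1.69% were. In the interferon gate and the sex-linked comparison edgeR and DESeq2 each called 0 of the 7. In edgeR 3 of the 7 (Plcg2, Adam10 and Adam17) had an unadjusted p under 0.05 in the interferon gate and 0 in the sex-linked comparison. Over all genes tested, 994 of 11122 and 1048 of 11212 had such a p in these 2 comparisons.

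The genes most like each member across the 7 gates with at least 10 cells in each run were ranked among 7942 genes by Pearson's r of log2(CPM + 1), a description over 7 points that share their libraries. Nearest to Ms4a7 were St8sia4, Mgl2 and Ifi203 (r of 0.992, 0.988 and 0.988), to Ms4a4a Cyr61, Ccl8 and Pla2g2d (1.00, 1.00 and 0.998), and to Ms4a4c Sp140, Scimp and Gbp2 (0.987, 0.962 and 0.955). Ms4a4a held 56 UMIs in border macrophages, 5 in MHC class II cells and 2 in microglia, so its r values rest mainly on 1 gate. Nearest to Ms4a6b were Ptpn18, Notch2 and Sik3 (0.990, 0.979 and 0.966), to Ms4a6c Aoah, Ahr and Pla2g7 (0.993, 0.986 and 0.981), and to Ms4a6d Ostf1, Bicra and Serp1 (0.995, 0.983 and 0.974). Between members r ran from 0.313 (Ms4a4a and Ms4a4c) to 0.942 (Ms4a6c and Ms4a7). Ms4a4b did not reach 20 CPM in these gates and was not ranked.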

How the data were processed

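Single-cell RNA libraries of 1 group were sequenced in 3 runs. The deposited values are UMI counts per gene and cell, not normalized; the submitters' processing notes name Cell Ranger, Seurat 4.0 and mm10, and the file headers give the counting software as 3.0.2 (run 1) and 3.1.0 (runs 2 and 3). The step that chose the deposited barcodes is not given in the sources used here.

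Of 20376 barcodes, 19791 with at least 1000 UMIs, 500 genes and at most 10% mitochondrial UMIs were kept (6078 to 6993 a run, 24225612 to 34140879 UMIs over all barcodes of a run). Cells were gated by markers, and cells that met several lineage or several state gates were left out. No doublet caller was run. Counts were summed per run and gate and tested with edgeR 4.0.16 (quasi-likelihood, TMM, its filter on low counts, run as a block; R 4.3.3) over all genes, with Benjamini-Hochberg adjustment at 0.05, for gates of at least 10 cells in every run. Run serves as the block since each pair of sums shares a library. The paired deviations correlated at 0.644 to 0.726 in the sex-linked comparison and at 0.105 to 0.345 in the others. Shares of cells were taken after thinning to 2000 UMIs, which left out 588 microglia, 9 border macrophages and 4 MHC class II cells. DESeq2 1.42.0 was an alternative. In edgeR the spread of each gene between runs was replaced by the trend over all genes in most comparisons. The exceptions were the sex-linked comparison and that of border macrophages with MHC class II cells, where it was only drawn towards the trend. Intervals are exact (Clopper-Pearson for shares, conditional binomial for ratios of counts).

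On simulated counts the test recovered 80% of genes changed 4-fold and 16% of those changed 2-fold for border macrophages, and 97% and 55% for MHC class II cells. Between these 2 gates it recovered 68% and 21%, and in the sex-linked comparison 100% and 100%. False calls were 7.25% of simulated calls for cycling cells and 6.32% between border macrophages and MHC class II cells, above the 0.05 set. Elsewhere they were 1.81 to 4.62%. Recovery was not split by gene level, so none is given for low-count genes such as Ms4a4c. The genes named are the 7 members, the 2 lists and, for each member, the 3 genes most like it. The members and lists were chosen with earlier results of these data known. Sequences come from RefSeq (GRCm38.p6) and gene positions from GENCODE M21.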

Additional observations from a re-analysis of the deposited data

Results flagged for a closer look

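Signal was also present in cells and barcodes that no comparison used. The 72 cells that met several lineage gates, with a median of 7511 UMIs and 22.2% holding both Xist and Y-linked UMIs, held 460 UMIs of Ms4a7, 459 of Ms4a6c, 368 of Ms4a6b, 153 of Ms4a6d, 55 of Ms4a4c, 32 of Ms4a4a and 10 of Ms4a4b. The 460 Ms4a7 UMIs were 33.6% of all Ms4a7 UMIs in kept cells. The 585 barcodes that failed the cell filter held 91 UMIs of Ms4a6b, 77 of Ms4a6c, 71 of Ms4a7, 51 of Ms4a6d and 6 of Ms4a4a. The 18 cells that met no gate held 21 UMIs of Ms4a6c, 16 of them in run 1.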

How the results depend on the processing

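Of 414 alternative values of the members' log2 changes, 350 kept direction and side of the threshold, 48 were no longer called, 3 became called and 13 changed sign, each of these in a change called neither way. Ms4a6d in the interferon gate, near 0, was -0.076 with no replicate block, -0.013 with no filter on low counts, -0.014 with cells of several gates kept, and from -0.29 to 0.22 with each run left out. In the lipid and phagocyte gate, 1 more marker gave -0.13 for Ms4a4c, 0.39 for Ms4a6c and 0.096 for Ms4a6d, and leaving out each run gave -0.30 to 1.03 for Ms4a4c. By sex-linked class, leaving out each run gave -0.019 to 0.12 for Ms4a6b and -0.11 to 0.0027 for Ms4a6d. Ms4a6d between the interferon and lipid and phagocyte gates was -0.084 with 1 more marker and -0.15 to 0.23 with each run left out. The calls of Ms4a6b and Ms4a6c in border macrophages, of Ms4a4c and Ms4a6c in MHC class II cells, of Ms4a4c in the interferon gate, of Ms4a6b in the lipid and phagocyte gate and of Ms4a6d in the cycling gate were made in every alternative run. Counts of genes called moved more, and the causes were not tested. Counts of members called include Ms4a7 and Ms4a4a, and Ms4a4c between border macrophages and MHC class II cells, which passed the filter through 1 gate only.

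In the pairing of sums by run, with no replicate block, edgeR called 410 genes in border macrophages (645 with it), 957 in MHC class II cells (1578), 133 in the interferon (208), 440 in the lipid and phagocyte (1615) and 98 in the chemokine gate (433), 0 in the sex-linked comparison (29), and 102 (278) and 272 (751) in the comparisons of border macrophages with MHC class II cells and of the interferon with the lipid and phagocyte gate. The members called were then 3 in MHC class II cells, 1 in the interferon gate, 0 in the chemokine gate, 2 and 1 in the direct comparisons, and unchanged in number elsewhere.

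DESeq2 called 413, 967, 869, 208 and 1155 genes in border macrophages, MHC class II cells and the lipid and phagocyte, chemokine and cycling gates, 13 by sex-linked class, and 159 and 215 in the direct comparisons. By DESeq2, 3 members were called in MHC class II cells, 0 in the chemokine gate, 1 in the cycling gate, and 3 and 1 in the direct comparisons. With cells of several gates kept, the counts were 1121 in border macrophages, 1004 in the chemokine gate and 101 between border macrophages and MHC class II cells (1 member). With 1 more marker per gate they were 918 in the lipid and phagocyte gate, 61 by sex-linked class and 466 between the interferon and lipid and phagocyte gates (1 member), and 1 member was called between border macrophages and MHC class II cells. With no filter on low counts 124 genes were called by sex-linked class. DESeq2's size factors moved the chemokine calls from 246 higher and 187 lower to 298 and 135.

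Leaving out each run in turn gave 201 to 839 genes in border macrophages, 694 to 1458 in MHC class II cells, 140 to 181 in the interferon, 868 to 1378 in the lipid and phagocyte, 202 to 344 in the chemokine and 973 to 1581 in the cycling gate, 14 to 51 by sex-linked class, and 0 to 333 and 320 to 545 in the direct comparisons. The members called ranged from 3 to 5 in MHC class II cells, 1 to 3 in the interferon gate, 0 to 5 between border macrophages and MHC class II cells and 1 to 2 between the interferon and lipid and phagocyte gates.

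Depth limits Ms4a4a, Ms4a4b and Ms4a4c most, which held 95, 93 and 418 UMIs over all kept cells. Of these, 32, 10 and 55 UMIs lay in cells that met several lineage gates and entered no main comparison. Border macrophages under the stricter cell filter or with little microglial RNA, and cycling cells under the stricter filter or with 1 more marker, fell below 10 cells in a run and were not tested.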
